A study of Mus musculus with 16 samples.

Results

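A set of 10 genes that govern withdrawal from the cell cycle was followed in maturing red cell precursors: the CDK inhibitor genes *Cdkn1a*, *Cdkn1b*, *Cdkn2c* and *Cdkn2d*, the D cyclin genes *Ccnd2* and *Ccnd3*, the kinase gene *Cdk6*, the retinoblastoma gene *Rb1*, and the E2F genes *E2f2* and *E2f4*. They were chosen by gene name, and all 10 of 10 were found among the 46078 genes counted in each library. RNA was sequenced from bone marrow erythroblasts at steady state, sorted with antibodies against CD44 and Ter119 into polychromatic (Poly-E) and orthochromatic (Ortho-E) cells. The mice were wild-type (*Ypel4*+/+) or homozygous for a gene trap allele in every cell (*Ypel4*-/-). Each of the 4 groups held 4 libraries, 16 in all, and the labels give neither age nor sex. For all 16 libraries the strain field gives C57BL/6N-A<tm1Brd>, together with the allele name Ypel4<tm1a(EUCOMM)Wtsi> and the line WtsiIeg, and the genotype is given in a field of its own.

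Entry into S phase is driven by cyclin D bound to CDK4 or CDK6, which phosphorylates the retinoblastoma protein and releases E2F factors from it. The INK4 inhibitors, here p18 (*Cdkn2c*) and p19 (*Cdkn2d*), bind CDK4 and CDK6 themselves, whereas the Cip/Kip inhibitors p21 (*Cdkn1a*) and p27 (*Cdkn1b*) bind cyclin-CDK complexes. Erythroblasts divide a few times while they mature and stop dividing before the nucleus is expelled. Cyclin D3, Rb and E2F2 are all known to act in this terminal programme.

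Depth ranged from 2670173 to 12451234 counts per library. *Ypel4* itself, the gene disrupted in the mutant, had 2531 to 23326 counts in the 8 *Ypel4*+/+ libraries and 65 to 1161 in the 8 *Ypel4*-/- libraries. It did not overlap between genotypes in either population in CPM. Here CPM is the count scaled to a library size that was adjusted by TMM, a scaling explained with the comparison. A CPM value is thus not a share of the counts of its library. Erythroblast markers summed to 59370 to 71790 CPM in Poly-E and 235300 to 323300 CPM in Ortho-E, with none of 13 at 0 and *Hbb-bs* highest. Under TMM *Cd44* (log2 fold change -1.27), *Klf1* (-0.40) and *Gata1* (-0.30) were called lower in *Ypel4*+/+ Ortho-E. *Epor* and *Tal1* were not called, and the rest of the 13 were called higher. In *Ypel4*-/- mice the calls were the same, except that *Gata1* was not called. Markers of other marrow cells were low but moved with the population. The 10 granulocyte and monocyte markers summed to 1.96 to 5.27 CPM in Poly-E and 4.45 to 20.8 CPM in Ortho-E (*Elane* was at 0 in 3 of the 4 groups), the 7 macrophage markers to 1.94 to 4.73 and 6.00 to 13.1 CPM, the 7 lymphocyte markers to 23.6 to 51.6 and 34.8 to 75.6 CPM (*Cd3e* at 0 throughout), the 5 megakaryocyte markers to 26.7 to 35.6 and 90.0 to 113 CPM (mostly *Itga2b*, with *Gp1bb* at 0 throughout), and the 4 early progenitor markers to at most 0.571 CPM. Called higher in Ortho-E under TMM scaling, explained with the comparison, were 2 of 5, 1 of 6, 1 of 5 and 1 of 2 tested markers of these first 4 lists in *Ypel4*+/+ mice, and 5 of 6, 3 of 7, 4 of 5 and 1 of 3 in *Ypel4*-/- mice. Their part in the results was not tested.

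The start sites of 4 genes that differed between populations, 2 higher and 2 lower in Ortho-E, are shown first, because E2F factors are themselves among the genes studied. RefSeq start sites (GRCm38.p6) were held for 7 of the 10 genes, and not for *Ccnd2*, *Rb1* and *E2f4*. Of the 4 genes shown, *E2f2* and *Ccnd3* each have a second start site, 8388 and 88416 bases downstream of the start of the counted gene. The regions before these second sites are not printed. Which start site the counted RNA came from was not tested. The 250 bases before the first start site are given 5′ to 3′ on the strand of the gene, for *Cdkn1b* and *E2f2*, which were higher in Ortho-E, and for *Cdkn2d* and *Ccnd3*, which were lower. *Cdkn1b* is at chr6:134920151-134920400 on the plus strand, *E2f2* at chr4:136172024-136172273 on the plus strand, *Cdkn2d* at chr9:21291210-21291459 on the minus strand and *Ccnd3* at chr17:47504801-47505050 on the plus strand.
Cdkn1b: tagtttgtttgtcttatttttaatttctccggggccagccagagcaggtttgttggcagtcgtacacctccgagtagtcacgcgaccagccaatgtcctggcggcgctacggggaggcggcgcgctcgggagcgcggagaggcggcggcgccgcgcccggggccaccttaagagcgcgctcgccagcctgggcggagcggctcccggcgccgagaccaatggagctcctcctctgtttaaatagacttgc
E2f2: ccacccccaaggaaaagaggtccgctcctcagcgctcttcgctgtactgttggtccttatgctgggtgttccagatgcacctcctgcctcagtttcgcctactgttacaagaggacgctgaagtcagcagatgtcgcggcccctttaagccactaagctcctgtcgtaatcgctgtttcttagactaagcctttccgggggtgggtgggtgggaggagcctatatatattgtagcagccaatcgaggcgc
Cdkn2d: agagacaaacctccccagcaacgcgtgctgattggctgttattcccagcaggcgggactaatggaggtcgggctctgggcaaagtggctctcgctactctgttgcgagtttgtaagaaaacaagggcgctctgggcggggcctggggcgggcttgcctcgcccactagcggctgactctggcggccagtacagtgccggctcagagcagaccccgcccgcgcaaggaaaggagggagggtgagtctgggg
Ccnd3: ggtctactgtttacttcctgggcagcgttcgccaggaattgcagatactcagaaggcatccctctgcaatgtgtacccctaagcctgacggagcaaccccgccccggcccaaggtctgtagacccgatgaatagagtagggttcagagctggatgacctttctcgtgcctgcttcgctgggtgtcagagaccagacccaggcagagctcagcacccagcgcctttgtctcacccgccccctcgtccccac

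An E2F motif, taken as TTCCCGC or as TTGGCGC or as TTCGCGC or as TTGCCGC on either strand, was searched in windows of 300 bases, from 250 before to 50 after a start site. The first window held one in 2 of the 7 genes, against 9.57% of 32851 windows of the same length. Both are printed with the bases beside them, the motif in capitals. The one in *Cdkn2c* began 25 bases before the start (chr4:109666767-109666789, minus strand, within the span of the gene in the files), and the one in *E2f2* began at base 40 after it (chr4:136172306-136172323, plus strand), upstream of the *E2f2* exons that were counted.
Cdkn2c: gcccggccTTCCCGCtcccgcgg
E2f2: catatagtTTGGCGCtaa

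A KLF motif (CCNCNCCC, either strand) was held by the first window of all 7 genes, against 49.5% of windows, and a GATA motif (AGATAA or TGATAA, either strand) by none, against 18.6%. The 4 regions printed above hold no E2F motif in these letters. The region of *Cdkn2c* is not printed, since it lies within the span of the gene in the files.

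Levels differed widely among the 10 genes. Compared per length, as CPM per kb of exon, *Cdkn2d* was highest in *Ypel4*+/+ Poly-E at 356 ± 38.1 (SD, n = 4), followed by *E2f2* at 308 ± 18 and *E2f4* at 258 ± 30.9. These neighbours overlapped between libraries. *Rb1* (143 ± 12.3), *Cdkn2c* (120 ± 23.4) and *Cdkn1b* (78.2 ± 16) followed, each overlapping the next. *Ccnd3* stood at 31.3 ± 5.78 CPM per kb and *Cdkn1a* at 1.38 ± 0.582, both apart from their neighbours. *Ccnd2* and *Cdk6* were at 0.0431 ± 0.00892 and 0.0255 ± 0.0130 and overlapped. In *Ypel4*-/- Poly-E the order was the same.

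In *Ypel4*+/+ Ortho-E the order was led by *E2f2* at 801 ± 43.7 CPM per kb and *Cdkn1b* at 630 ± 43.9, which did not overlap. *E2f4* followed at 237 ± 17.4, then *Rb1* at 95.9 ± 12.1 and *Cdkn2d* at 91.7 ± 19.0, which overlapped each other. *Cdkn1b* thus stood sixth of the 10 genes in Poly-E and second in Ortho-E, and *Cdkn2d* was first in Poly-E and followed *Rb1* in Ortho-E. *Ypel4*-/- Ortho-E had the same order down to *Cdkn1a*, the eighth.

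**Figure D1:**
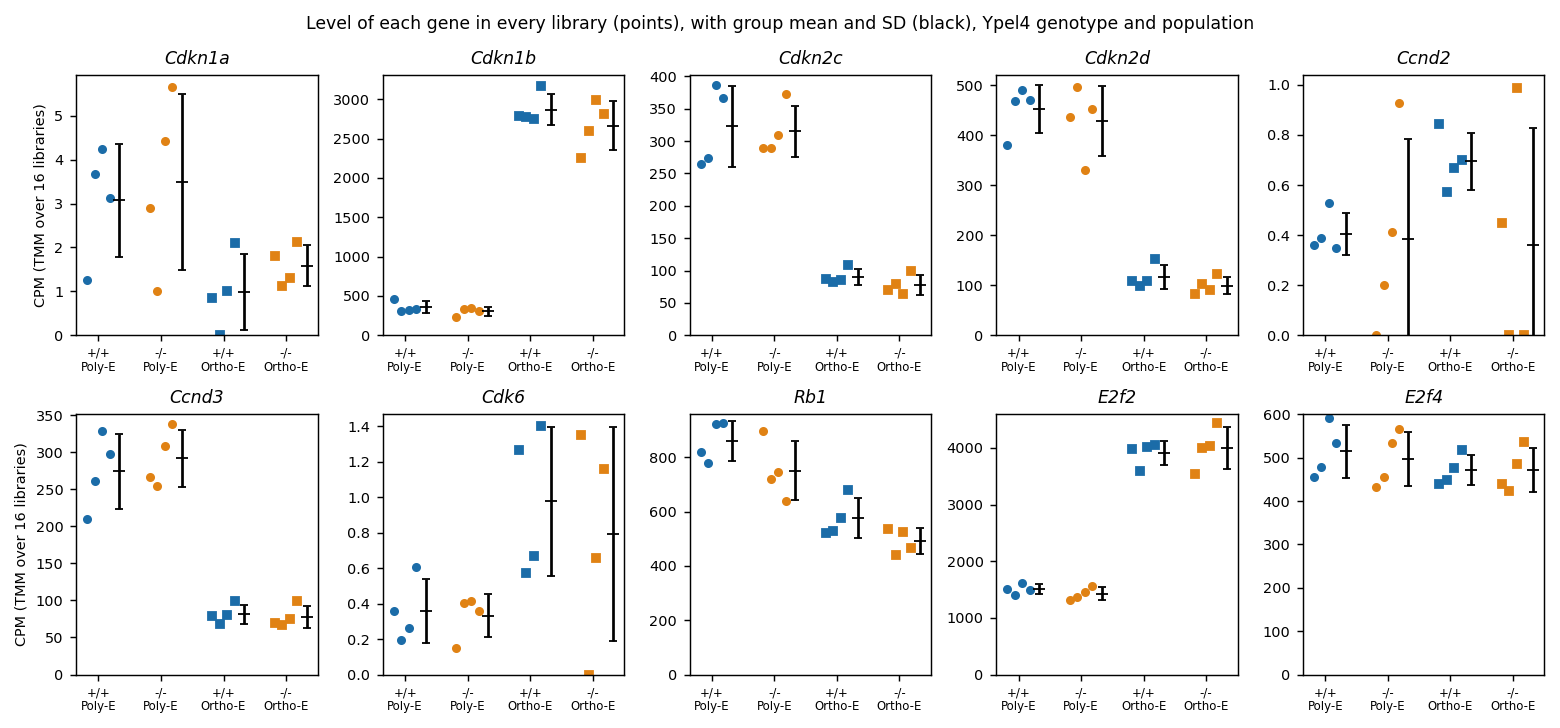
Level of each gene in CPM (vertical axis, linear from 0) in every library (points) of the 4 groups (horizontal axis), with the group mean and SD in black. *Cdkn1b* and *E2f2* sit higher in all 8 Ortho-E libraries than in any Poly-E library, *Cdkn2c*, *Cdkn2d*, *Ccnd3* and, within each genotype, *Rb1* lower, and the genotypes overlap for every gene.

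The first comparison asks how these genes differ between the earlier and the later population. In *Ypel4*+/+ mice *Cdkn1b* and *E2f2* rose from Poly-E to Ortho-E, while *Cdkn2c*, *Cdkn2d*, *Ccnd3*, *Cdkn1a* and *Rb1* fell (edgeR, adjusted p of 0.05 or less). That is 2 of 10 higher and 5 lower, where 26.4% and 32.1% of 11747 tested genes were called higher and lower, 58.5% in all. In *Ypel4*-/- mice the same 2 genes rose and the same 5 fell, where 29.5% and 31.5% of 11973 genes were called, 61% in all. The median log2 fold change of the 10 genes was -0.32 in *Ypel4*+/+ and -0.48 in *Ypel4*-/- mice, beside -0.19 and -0.09 over all tested genes. Taken by levels in CPM, 3 of the 10 genes were higher in all *Ypel4*+/+ Ortho-E than in all Poly-E libraries and 4 lower, where 22.6% and 30.6% of all genes were. Beside *Cdkn1b* and *E2f2*, the third higher gene was *Ccnd2*, on only 16 counts in Poly-E and 8 in Ortho-E. In *Ypel4*-/- mice 2 genes were higher and 4 lower, where 23.1% and 32.4% of all genes were. Such levels depend on the scaling of the libraries, treated next. These 2 comparisons share no library. In sorted bulk samples, fewer cells of a type and less RNA per cell cannot be told apart.

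Directions are relative to the scaling of the libraries. TMM scaling sets the bulk of genes level between libraries. With library totals in its place the median over all genes moved to -1.45 in *Ypel4*+/+ and -1.48 in *Ypel4*-/- mice, and the calls split into 10.4% higher and 60.3% lower, and 11.2% higher and 60.9% lower. The 10 most abundant genes took 11.9 to 13.8% of counts in Poly-E and 22.1 to 24.3% in Ortho-E libraries. Under totals *Cdkn1b* still rose, and *Cdkn2c*, *Cdkn2d*, *Ccnd3*, *Cdkn1a* and *Rb1* still fell, in both genotypes, whereas *E2f2* and *E2f4* depended on the scaling, as given with each.

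**Figure D2:**
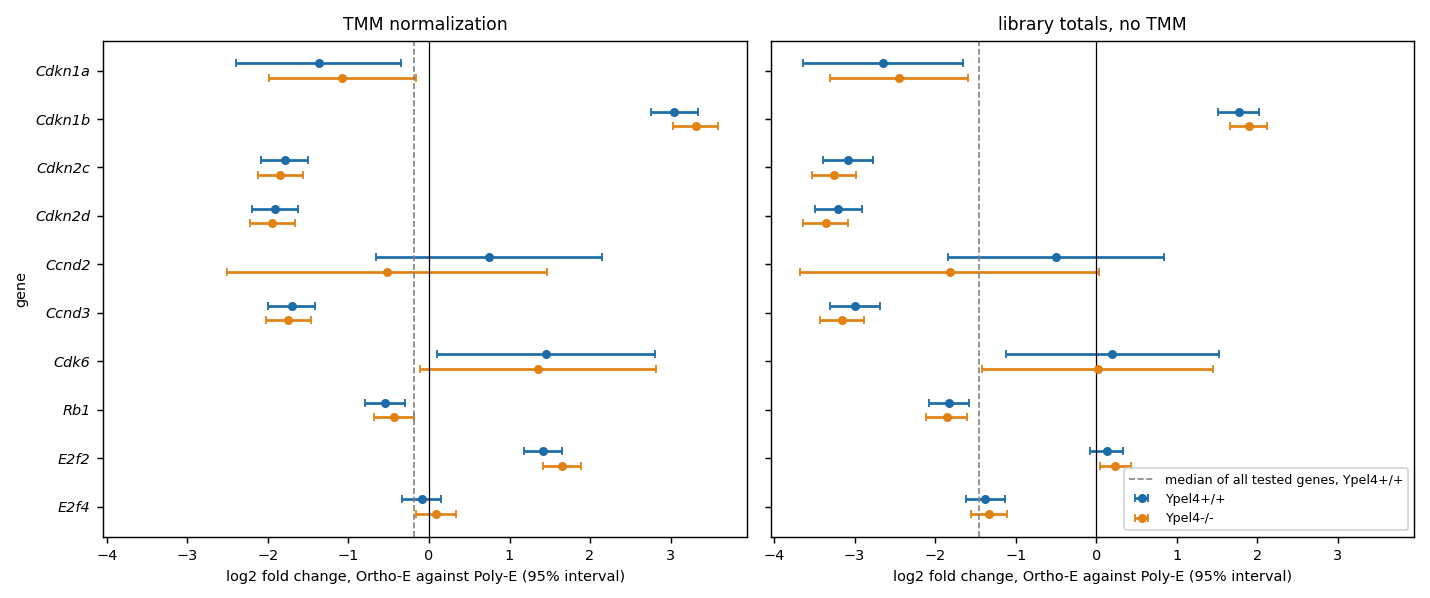
Log2 fold change of Ortho-E against Poly-E (horizontal axis) for each gene (vertical axis) in *Ypel4*+/+ (blue) and *Ypel4*-/- mice (orange), with 95% intervals, under TMM (left) and library totals (right). The dashed line is the median of all tested genes in *Ypel4*+/+ mice, -0.19 on the left and -1.45 on the right, and every gene's estimate lies further left in the right panel.

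Among the inhibitors, *Cdkn1b* (ENSMUSG00000003031, chr6:134920401-134925513, plus strand), which encodes p27, gave the largest difference of the 10. It was measured at 464.5, 311.6, 316.7 and 331.0 CPM in the 4 *Ypel4*+/+ Poly-E libraries and at 2786, 2775, 2744 and 3166 CPM in the Ortho-E libraries. In *Ypel4*-/- mice the values were 226.9, 331.1, 342.7 and 306.5 CPM in Poly-E and 2255, 2598, 2987 and 2817 CPM in Ortho-E. Each Ortho-E library thus lay far above every Poly-E library. The rise was 3.04 ± 0.14 on the log2 scale (SE, 8.25-fold, adjusted p = 1.35e-15) in *Ypel4*+/+ and 3.31 ± 0.14 (9.93-fold, adjusted p = 2.94e-20) in *Ypel4*-/- mice. Under library totals it was 1.77 and 1.89 (adjusted p = 1.76e-12 and 1.08e-15), or 3.40-fold and 3.72-fold.

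The INK4 genes moved the other way. *Cdkn2d* (ENSMUSG00000096472, chr9:21288463-21291209, minus strand), for p19, had 381.0, 467.8, 489.9 and 469.6 CPM in *Ypel4*+/+ Poly-E and 108.6, 97.65, 108.0 and 152.1 CPM in Ortho-E. Values in *Ypel4*-/- mice were 437.3, 495.7, 329.6 and 451.7 CPM in Poly-E and 82.34, 102.0, 89.76 and 121.8 CPM in Ortho-E. The populations did not overlap in either genotype. The fall was -1.91 ± 0.14 on the log2 scale (adjusted p = 3.85e-12) in *Ypel4*+/+ and -1.94 ± 0.14 (adjusted p = 2.59e-14) in *Ypel4*-/- mice.

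*Cdkn2c* (ENSMUSG00000028551, chr4:109660876-109667189, minus strand), for p18, had 265.0, 273.5, 386.7 and 367.0 CPM in *Ypel4*+/+ Poly-E and 86.19, 81.66, 85.64 and 108.9 CPM in Ortho-E. In *Ypel4*-/- mice it had 289.0, 289.6, 309.9 and 372.9 CPM in Poly-E and 70.64, 78.64, 64.12 and 99.77 CPM in Ortho-E. Again every Ortho-E library lay below every Poly-E library. The log2 fold change was -1.79 ± 0.14 (adjusted p = 1.95e-11) in *Ypel4*+/+ and -1.85 ± 0.14 (adjusted p = 1.43e-13) in *Ypel4*-/- mice. Under library totals *Cdkn2d* fell by 3.20 and 3.36 and *Cdkn2c* by 3.08 and 3.26 on the log2 scale in the 2 genotypes. The log2 ratio of *Cdkn1b* to *Cdkn2c* counts, a pair chosen after its values were seen and a ratio that no scaling of a library can alter, was 0.14 in *Ypel4*+/+ Poly-E and 4.99 in Ortho-E, and -0.07 and 5.10 in *Ypel4*-/- mice.

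*Cdkn1a* (ENSMUSG00000023067, chr17:29090979-29100722, plus strand), for p21, was near the limit of detection. It had 7, 19, 64 and 36 counts in *Ypel4*+/+ Poly-E (1.26, 3.68, 4.24 and 3.13 CPM) and 2, 0, 3 and 9 counts in Ortho-E (0.845, 0, 1.00 and 2.10 CPM). In *Ypel4*-/- mice it had 19, 5, 32 and 110 counts in Poly-E (2.89, 1.01, 4.42 and 5.66 CPM) and 4, 3, 4 and 11 in Ortho-E (1.80, 1.11, 1.32 and 2.12 CPM). The populations overlapped in both genotypes. The log2 fold change was -1.37 ± 0.50 (adjusted p = 0.0204) in *Ypel4*+/+ and -1.08 ± 0.45 (adjusted p = 0.0383) in *Ypel4*-/- mice. DESeq2 did not call it in either (adjusted p = 0.0548 and 0.109). The call was lost in *Ypel4*+/+ mice without Ortho-E replicate 1 (-1.26), 2 (-1.11) or 3 (-1.29) or Poly-E replicate 2 (-1.24) or 3 (-1.06), and in *Ypel4*-/- mice without Ortho-E replicate 2 (-0.9444) or 3 (-0.9948) or Poly-E replicate 3 (-1.004) or 4 (-0.61, adjusted p = 0.262). With 1 library left out the value ranged from -2.11 to -1.06 in *Ypel4*+/+ mice, the first without Ortho-E replicate 4, and from -1.32 to -0.61 in *Ypel4*-/- mice.

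Of the D cyclins, *Ccnd3* (ENSMUSG00000034165, chr17:47505051-47599691, plus strand), which encodes cyclin D3, carried almost all of the counts. It had 210.2, 261.1, 328.0 and 297.6 CPM in *Ypel4*+/+ Poly-E and 79.43, 67.95, 79.64 and 98.90 CPM in Ortho-E. Values in *Ypel4*-/- mice were 265.9, 254.3, 307.7 and 337.9 CPM in Poly-E and 69.74, 66.40, 74.97 and 98.81 CPM in Ortho-E. No Ortho-E library reached a Poly-E library. The log2 fold change was -1.71 ± 0.14 (adjusted p = 6.87e-11) in *Ypel4*+/+ and -1.75 ± 0.14 (adjusted p = 3.47e-13) in *Ypel4*-/- mice, and -3.00 and -3.16 under library totals. *Ccnd3* shares 361 exon bases with *Bysl* on the other strand, where reads of the 2 genes cannot be told apart and were not counted.

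*Ccnd2* (ENSMUSG00000000184, chr6:127125162-127152193, minus strand), for cyclin D2, had 2, 2, 8 and 4 counts in *Ypel4*+/+ Poly-E, against 2, 1, 2 and 3 in Ortho-E. In *Ypel4*-/- mice it had 0, 1, 3 and 18 counts in Poly-E, against 1, 0, 3 and 0 in Ortho-E. At this depth no difference was detectable, with log2 fold changes of 0.74 ± 0.68 (adjusted p = 0.364) and -0.52 ± 0.97 (adjusted p = 0.665). Neither value is stable. Library totals turned the first to -0.50 and moved the second to -1.82, and with 1 *Ypel4*-/- library left out the second ranged from -2.004 (without Ortho-E replicate 3) to 0.15 (without Ortho-E replicate 4), never called, and without Poly-E replicate 4 the gene was too scarce to be tested. In CPM the *Ypel4*+/+ populations did not overlap (0.348 to 0.529 against 0.571 to 0.845), on 16 and 8 counts.

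*Cdk6* (ENSMUSG00000040274, chr5:3341485-3531008, plus strand), for a kinase partner of the D cyclins, had 2, 1, 4 and 7 counts in *Ypel4*+/+ Poly-E, against 3, 1, 2 and 6 in Ortho-E. In *Ypel4*-/- mice it had 1, 2, 3 and 7 in Poly-E, against 3, 0, 2 and 6 in Ortho-E. With 50 counts over the 16 libraries it was scarce in both populations. The log2 fold change was 1.46 ± 0.66 (adjusted p = 0.0600) in *Ypel4*+/+ and 1.36 ± 0.72 (adjusted p = 0.104) in *Ypel4*-/- mice, and 0.20 and 0.02 under library totals. It passed the threshold with DESeq2's size factors in *Ypel4*+/+ mice (1.58, adjusted p = 0.0410), without *Ypel4*+/+ Poly-E replicate 4 (1.97, adjusted p = 0.03163) and without *Ypel4*-/- Ortho-E replicate 2 (1.72, adjusted p = 0.0366). *Ccnd2* and *Cdk6* both share exon bases with other loci on the other strand, 740 and 368 bases.

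*Rb1* (ENSMUSG00000022105, chr14:73183673-73325822, minus strand), which encodes the pocket protein that D cyclin kinases phosphorylate, was lower in Ortho-E by less than the other called genes. It had 818.3, 779.7, 923.7 and 924.9 CPM in *Ypel4*+/+ Poly-E and 521.8, 529.9, 575.5 and 679.9 CPM in Ortho-E. Values in *Ypel4*-/- mice were 897.9, 720.3, 747.0 and 638.0 CPM in Poly-E and 536.8, 440.7, 526.7 and 464.9 CPM in Ortho-E. The populations did not overlap within a genotype. The log2 fold change was -0.54 ± 0.12 (adjusted p = 0.000364) in *Ypel4*+/+ and -0.43 ± 0.12 (adjusted p = 0.00261) in *Ypel4*-/- mice, and -1.83 and -1.86 under library totals. *Rb1* shares 896 exon bases with *Rcbtb2* and *Lpar6* on the other strand.

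*E2f2* (ENSMUSG00000018983, chr4:136172394-136196057, plus strand), for an E2F factor of the activator class, had the most counts of the 10 genes. It had 1516, 1404, 1616 and 1485 CPM in *Ypel4*+/+ Poly-E and 3977, 3596, 4021 and 4056 CPM in Ortho-E. In *Ypel4*-/- mice it had 1310.0, 1377, 1465 and 1563 CPM in Poly-E and 3539, 3998, 4033 and 4444 CPM in Ortho-E. Every Ortho-E library lay above every Poly-E library. The rise was 1.41 ± 0.12 on the log2 scale (2.66-fold, adjusted p = 3.76e-11) in *Ypel4*+/+ and 1.65 ± 0.11 (3.15-fold, adjusted p = 1.80e-14) in *Ypel4*-/- mice. Under library totals it was 0.13 (adjusted p = 0.248) and 0.24 (adjusted p = 0.0248), so that the call was lost in *Ypel4*+/+ mice.

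*E2f4* (ENSMUSG00000014859, chr8:105297663-105305369, plus strand), for an E2F factor of the repressor class that pairs with pocket proteins, was not called under TMM. It had 454.5, 477.7, 592.5 and 533.5 CPM in *Ypel4*+/+ Poly-E and 440.2, 449.4, 477.2 and 517.4 CPM in Ortho-E. Values in *Ypel4*-/- mice were 433.2, 456.6, 532.9 and 565.9 CPM in Poly-E and 439.2, 423.6, 486.3 and 535.3 CPM in Ortho-E. The populations overlapped in both genotypes. The log2 fold change was -0.09 ± 0.12 (95% interval -0.34 to 0.15, adjusted p = 0.528) in *Ypel4*+/+ and 0.08 ± 0.12 (-0.16 to 0.33, adjusted p = 0.566) in *Ypel4*-/- mice. Under library totals it was -1.38 (adjusted p = 1.42e-10) and -1.33 (adjusted p = 2.61e-12), near the median of all genes under that scaling.

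Shares within a library do not depend on the scaling between libraries. They were taken per kb of exon, and the 28 comparisons of shares were each tested by an exact permutation test of 4 libraries against 4, two-sided, whose smallest possible p is 0.0286. Of *E2f1* to *E2f8* together, *E2f2* held 44.6, 40.4, 39.9 and 39.9% in *Ypel4*+/+ Poly-E, against 76.2, 73.5, 74.7 and 72.9% in Ortho-E. The means were 41.2 and 74.3% in *Ypel4*+/+ mice, and 40.9 and 75.0% in *Ypel4*-/- mice. *E2f4* held 34.4% ± 1.4 (SD, n = 4) and 21.9% ± 0.946 in *Ypel4*+/+ mice, and 34.7% ± 0.801 and 21.6% ± 1.12 in *Ypel4*-/- mice. For both genes the populations did not overlap in either genotype (exact p = 0.0286, adjusted p = 0.0800 over the 28 tests). No adjusted p passed the threshold. Given the smallest possible p, even full separation of the populations in every share would not have passed it alone. No conclusion on the shares is drawn from that failure. The log2 ratio of *E2f2* to *E2f4* counts, also chosen after its values were seen, differed by 1.501 between populations in *Ypel4*+/+ and by 1.56 in *Ypel4*-/- mice, with pooled SDs of 0.11 and 0.09.

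*Cdkn1b* held 97.9% ± 0.886 of the Cip/Kip inhibitors in *Ypel4*+/+ Poly-E and 99.9% ± 0.0704 in Ortho-E. *Cdkn2c* held 25.2% ± 2.57 and 27.1% ± 1.27 of the INK4 inhibitors, with overlap (exact p = 0.171, adjusted p = 0.400). *Ccnd3* held 99.7% ± 0.0881 and 98.2% ± 0.846 of the D cyclins in *Ypel4*+/+ mice, beside only 8 counts of *Ccnd2* and 3 of *Ccnd1* in Ortho-E. In *Ypel4*-/- mice it held 99.74% and 99.19%, with overlap (exact p = 0.314, adjusted p = 0.55). D cyclins with *Cdk4* and *Cdk6*, set against the Cip/Kip and INK4 inhibitors, gave a log2 ratio of -4.06 ± 0.13 in *Ypel4*+/+ Poly-E, against -6.26 ± 0.11 in Ortho-E, and of -3.86 ± 0.25 and -6.20 ± 0.24 in *Ypel4*-/- mice. This ratio did not overlap between populations in either genotype (exact p = 0.0286, adjusted p = 0.0800).

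**Figure D3:**
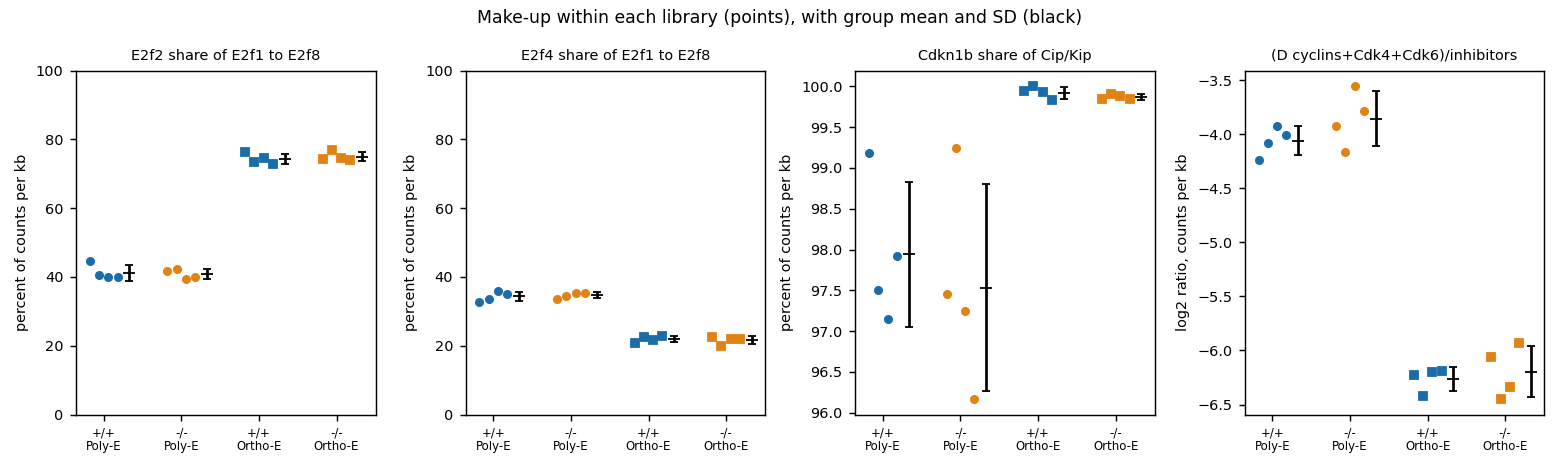
Composition within each library (points; group mean and SD in black) for the 4 groups: from the left, the share of *E2f2* and of *E2f4* among *E2f1* to *E2f8* (percent of counts per kb, axis from 0), of *Cdkn1b* among Cip/Kip inhibitors (percent, axis from 96 to 100), and the log2 ratio of D cyclins, *Cdk4* and *Cdk6* to inhibitors. *E2f2* goes from about 41.2% in Poly-E to 74.3% in Ortho-E of *Ypel4*+/+ mice, and the log2 ratio from -4.06 to -6.26.

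The other genes of the pathway are given by lists, with the count called in *Ypel4*+/+ Ortho-E against Poly-E. Among other G1 cyclins and CDKs, 1 of 9 tested genes rose and 7 fell (median log2 fold change -1.98, against -0.19 over all genes). The largest falls were those of *Cdk4*, the other D cyclin kinase (-2.50), *Cdc25a*, a phosphatase that activates CDK2 (-2.26), and *Cdk2* itself (-2.14). *Cdk4* had few counts, 268 in *Ypel4*+/+ Poly-E and 14 in Ortho-E, and its SE was 0.34. Whether reads of *Cdk4* were left out because they matched several places or genes was not tested. In *Ypel4*-/- mice its value was -1.97, behind *Cdk2* at -2.11. *Cdk7*, of the CDK-activating kinase, rose by 0.53 (adjusted p = 0.0455) but fell by 0.75 under library totals. By the same test 0 rose and 7 fell in *Ypel4*-/- mice, with 8 at an unadjusted p under 0.05.

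Among the other pocket proteins, E2F and DP genes, 2 of 9 rose and 7 fell in *Ypel4*+/+ mice, with a median log2 fold change of -2.08. The counts of this list and those that follow stand beside 26.4% higher and 32.1% lower over all tested genes, with a median of -0.19, and nothing is read from a share near these. *Tfdp2*, for an E2F dimer partner, rose by 2.78 and *Rbl2*, for the pocket protein p130, by 1.47, the latter not called under library totals (0.19). *E2f8* (-2.23), *Rbl1*, for p107 (-2.20), and *E2f7* (-2.14) fell furthest. There were 2 of 10 higher and 7 lower in *Ypel4*-/- mice. All 16 of 16 E2F target genes of DNA replication fell in each genotype, with a median of -2.04 in *Ypel4*+/+ mice. There the largest changes were in *Pola1* (-2.34), *Mcm2* (-2.22) and *Mcm3* (-2.21) and the smallest in *Tk1* (-1.60). In *Ypel4*-/- mice the values ran from -2.25 (*Tyms*) to -1.48 (*Tk1*). Among partners in the MuvB and DREAM complexes 5 of 7 fell (median -1.999), led by *Mybl2* (-2.27), *Foxm1* (-2.23) and *Lin9* (-2.02), and *Lin37* (0.66) and *Lin52* (0.40) rose, while under library totals all 7 fell.

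Among 10 genes for turnover of inhibitors and D cyclins, 3 rose and 5 fell in *Ypel4*+/+ mice, with a median of -0.66. *Skp2*, whose product marks p27 for destruction (-2.08), *Fbxo5*, an inhibitor of the anaphase-promoting complex (-2.08), and *Cul1*, the scaffold of SCF ligases (-1.99), fell furthest. *Fzr1*, an activator of the anaphase-promoting complex (2.30), *Ambra1*, a receptor for D cyclin degradation (1.89), and *Rnf123*, a ligase for p27 (0.91), rose, though *Rnf123* fell by 0.38 under library totals. Among p53 and its target genes 6 of 9 rose and 1 fell (median 1.57), with *Gadd45a* (3.18), *Trp53inp1* (2.34) and *Btg2* (1.68) highest and *Bax* lower (-0.57). Among other antiproliferative genes 4 of 5 rose (median 1.95), led by *Ccng2* (3.21), *Btg1* (2.06) and *Tob1* (1.95), and *Tob2* fell (-0.83). Under library totals these last 2 lists had 3 higher and 2 lower each. The remaining CDK inhibitor genes were near absent: *Cdkn2a* and *Cdkn2b* had 0 counts in all 16 libraries, and *Cdkn1c* had 1 to 11 counts per group.

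**Figure D4:**
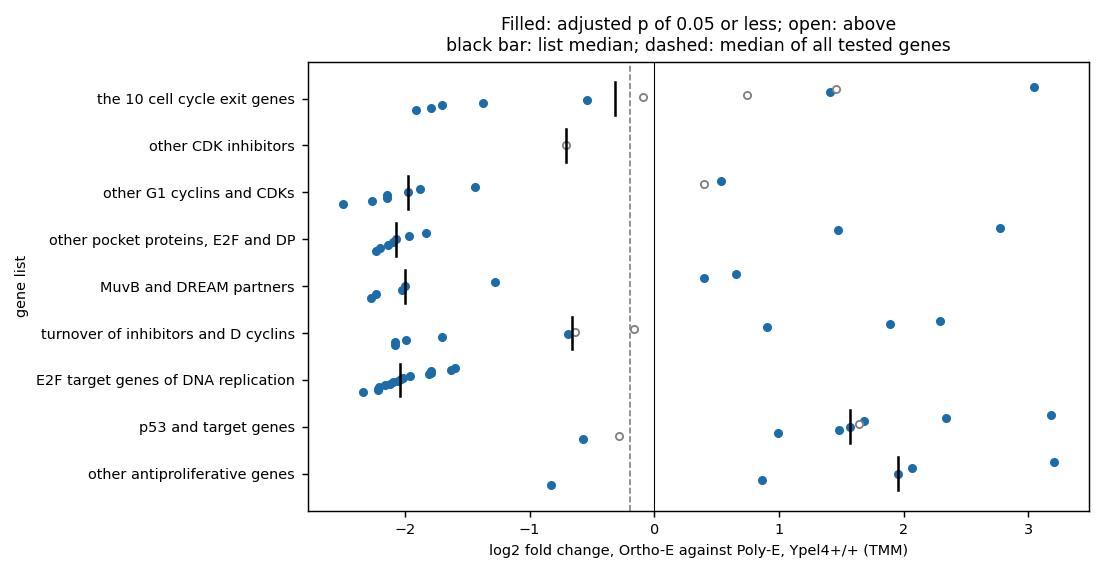
Log2 fold change from Poly-E to Ortho-E of *Ypel4*+/+ mice (horizontal axis) for the genes of each list (vertical axis), filled where the adjusted p was 0.05 or less. The black bar is the list median and the dashed line the median of all genes (-0.19). The E2F target genes all lie to the left, between -2.34 and -1.60.

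The second comparison asks whether loss of *Ypel4* altered these genes. No member was called in either population: 0 of 10 in Poly-E, beside 0.00807% of 12395 genes tested, and 0 of 10 in Ortho-E, beside 0.0285% of 10521. With the replicate number as a block 4 genes in place of 1 were called in Poly-E, and still none of the 10. By edgeR none of the 10 had an unadjusted p under 0.05 in either population, beside 2.19% and 3.68% of all genes, and DESeq2 also called 0. The adjusted p was 0.9998 for each gene in Poly-E and 0.9953 for each in Ortho-E. The genotypes overlapped for all 10 genes, where 2.09% and 2.35% of all genes did not overlap.

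The intervals bound how large a difference could be. For *E2f2* the log2 fold change of *Ypel4*-/- against *Ypel4*+/+ was -0.07 in Poly-E (95% interval -0.28 to 0.13) and 0.05 in Ortho-E (-0.13 to 0.22). For *Cdkn1b* it was -0.24 (-0.54 to 0.06) and -0.09 (-0.27 to 0.09), and for *E2f4* -0.05 (-0.29 to 0.19) and 0.02 (-0.17 to 0.21). *Cdkn2c* gave -0.03 (-0.31 to 0.24) and -0.19 (-0.45 to 0.07), *Cdkn2d* -0.08 (-0.34 to 0.19) and -0.22 (-0.48 to 0.04), and *Ccnd3* 0.09 (-0.19 to 0.37) and -0.06 (-0.32 to 0.20). These 6 genes are thus bounded well within a 2-fold difference. The intervals of *Cdkn1a*, *Ccnd2* and *Cdk6* were wide, for *Ccnd2* from -3.01 to 0.92 in Ortho-E, and a difference was not detectable at this depth.

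*Rb1* came nearest to the threshold, at -0.19 (-0.44 to 0.05) in Poly-E and -0.20 (-0.41 to 0.01) in Ortho-E. Within replicates 1 and 2 the difference was 0.01 in Poly-E, against -0.11 in Ortho-E, and within replicates 3 and 4 it was -0.42 and -0.34. Within the same pairs of replicates *Cdkn1b* differed by -0.47 and 0.00 in Poly-E. The labels do not call these pairs batches, and each holds 2 libraries per group.

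**Figure D5:**
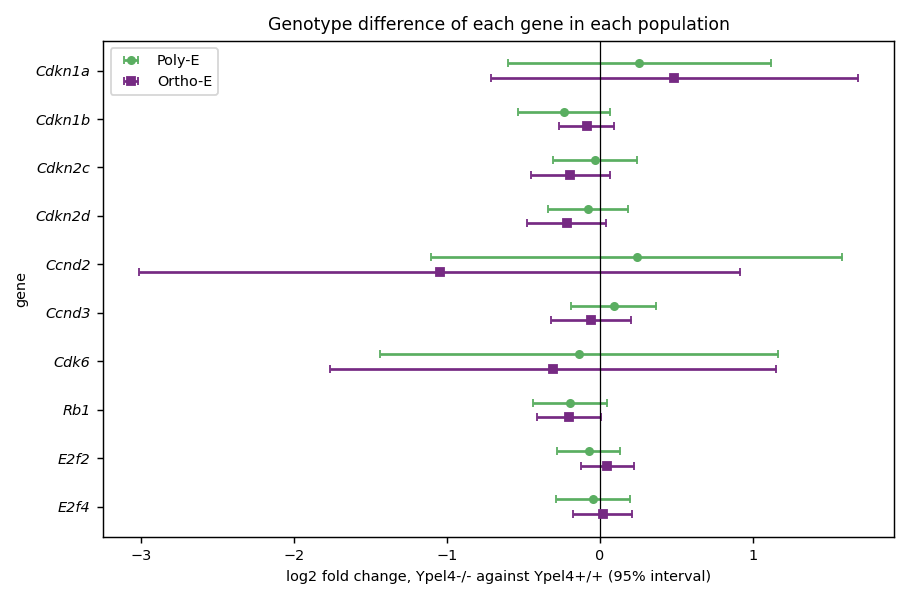
Log2 fold change of *Ypel4*-/- against *Ypel4*+/+ (horizontal axis) for each gene (vertical axis) in Poly-E (green circles) and Ortho-E (purple squares), with 95% intervals. All 20 intervals include 0, and those of *Cdkn1a*, *Ccnd2* and *Cdk6* are the widest.

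The third comparison asks whether the step from Poly-E to Ortho-E differed with the genotype. By edgeR the interaction was called for 0 of the 10 genes, and for 0.0% of 13318 genes in all, with none of the 10 and 363 of all genes (2.73%) at an unadjusted p under 0.05. DESeq2, and edgeR with a block for the replicate number, each called 1 gene, none of the 10. For *Cdkn1b* the interaction was 0.13 on the log2 scale (95% interval -0.25 to 0.51), for *E2f2* 0.11 (-0.20 to 0.42) and for *Rb1* -0.03 (-0.38 to 0.32). Taken replicate by replicate, *Cdkn1b* and *E2f2* were higher in Ortho-E in 4 of 4 replicates of each genotype, and *Cdkn2c*, *Cdkn2d*, *Ccnd3* and *Rb1* lower in 4 of 4. *Cdkn1a* was lower in 4 of 4 in *Ypel4*+/+ and 3 of 4 in *Ypel4*-/- mice, and so was *E2f4*, which was not called. *Ccnd2* and *Cdk6*, also not called, were higher in 4 of 4 in *Ypel4*+/+ mice, and in 2 and 3 of 4 in *Ypel4*-/- mice. The share of all genes with such tallies was not taken, so nothing is read from them.

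The genes whose log2 CPM over the 16 libraries was most like each member's, taken from 3718 genes whose mean level reached 20 CPM, are given as a description. The libraries share the split into 2 populations, which alone gives high correlations. *Cdkn1b* was most like *Metap2*, *Fbxo30* and *Fbxo34* (Pearson's r from 0.9988 to 0.9992), and *E2f2* most like *Pigq*, *Slc4a1*, the band 3 gene, and *Map4k5* (0.9982 to 0.9989). *Cdkn2d* was most like *Plk1*, *Kif22* and *Tpx2*, and *Cdkn2c* most like *Espl1*, *Lmnb1* and *Kifc5b*, of which *Plk1*, *Kif22*, *Tpx2* and *Espl1* act in mitosis (0.993 to 0.9952). *Ccnd3* was most like *Smarcc2*, *Gnai2* and *Cdan1* (0.9944 to 0.9956). *Rb1* was most like *Nanos1*, *Dleu2* and *Cntln* (0.9073 to 0.9252), and *E2f4* most like *Rbck1*, *Ubap2* and *Mbd6* (0.9122 to 0.9231). The scarce genes gave lower values, *Cdkn1a* with *Snrnp200*, *Unk* and *Rap1b* (0.8441 to 0.8804), *Cdk6* with *Ubxn4*, *Tug1* and *Sgpl1* (0.7824 to 0.8204) and *Ccnd2* with *Gtf2a1*, *Zdhhc5* and *Med7* (0.4514 to 0.4993).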

How the data were processed

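RNA was sequenced from sorted Poly-E and Ortho-E cells in 16 libraries. The authors processed reads with nf-core/rnaseq against GRCm38. The deposited counts, per the file headers from featureCounts 1.6.4, are whole numbers of read pairs assigned to a gene's exons, without strand, multi-mapping reads or reads on several genes. Groups were taken from the titles.

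Counts were tested in R 4.3.3 with edgeR 4.0.16 (robust quasi-likelihood, TMM) where a gene summed to 10 counts or more, with p-values adjusted by Benjamini-Hochberg and called at 0.05, in the 8 libraries compared or in all 16 for the interaction. On simulated data 79.5 to 92.0% of 200 genes changed 2-fold were called in the 4 comparisons of 8 libraries, and 53.0% in the interaction. Of the calls 5.9 to 11.7% were false, more than the threshold of 0.05 aims at. The changed genes were drawn from well-counted genes only, so these rates do not cover scarce ones such as *Ccnd2* and *Cdk6*. All other genes were left unchanged, unlike the real comparisons between populations, where 58.5% and 61% of genes were called. Printed CPM uses TMM over 16 libraries. Alternatives were DESeq2 1.42.0, other scalings and filters, and each library left out. Same-numbered Poly-E and Ortho-E libraries share a second number in the deposited names, read as the mouse. Their deviations over 3874 genes correlated at r from 0.48 to 0.65 in *Ypel4*+/+ and 0.034 to 0.58 in *Ypel4*-/- mice. Libraries of different numbers gave -0.58 to 0.48 and -0.52 to 0.41, so the ranges overlap. Between populations of *Ypel4*+/+ mice, different numbers correlated positively only between replicates 1 and 2 or 3 and 4 (0.26 to 0.48). The rest ran from -0.58 to -0.41. Genotypes of one number correlated in Poly-E (0.21 to 0.73) but not throughout in Ortho-E (-0.098 to 0.45). Different numbers there gave -0.62 to 0.61 and -0.42 to 0.41. The reading as the mouse was not tested. Nothing states that replicates were separate mice, so p-values measure the spread between samples. Named genes were the 10 members, *Ypel4*, up to 3 called genes in each direction per list, and the 3 genes most like each member. Members and lists were chosen with earlier results of these data known.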

Additional observations from a re-analysis of the deposited data

Results flagged for a closer look

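Of 68 sets of 4 libraries examined, 6 held a library set far from the other 3, where chance gives about 1 in 20. *Cdkn1b* was 464.5 CPM in *Ypel4*+/+ Poly-E replicate 1, against 311.6 to 331.0 in the others, and 3166 CPM in *Ypel4*+/+ Ortho-E replicate 4, against 2744 to 2786. *Cdkn2c* was 108.9 CPM in *Ypel4*+/+ Ortho-E replicate 4, against 81.66 to 86.19. The share of *E2f2* among the E2f genes was 44.57% in *Ypel4*+/+ Poly-E replicate 1, against 39.91 to 40.44%, and 77.0% in *Ypel4*-/- Ortho-E replicate 2, against 74.13 to 74.57%. The log2 ratio of D cyclins, *Cdk4* and *Cdk6* to inhibitors was -6.424 in *Ypel4*+/+ Ortho-E replicate 2, against -6.229 to -6.191. Leaving out any one library kept the calls of *Cdkn1b* and *Cdkn2c* between populations (log2 fold changes of 3.01 to 3.31 and -1.88 to -1.58 in *Ypel4*+/+ mice).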

How the results depend on the processing

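The number of the 10 genes called between populations was 6 to 8 of 10 in each genotype under all alternatives, and 0 for the genotype comparisons and the interaction. For *E2f4* in *Ypel4*-/- mice library totals turned 0.08 into -1.33, and for *Ccnd2* in *Ypel4*+/+ mice 0.74 into -0.50, not called either way. The number of all genes called in Poly-E between genotypes was 1, and was 2 with DESeq2, 4 with no filter, 3 with all 16 libraries fitted, 4 with a replicate block and 3 with a term for replicates 1 and 2 against 3 and 4; with a library left out it ranged from 1 to 2 (2 without *Ypel4*-/- replicate 1). In Ortho-E it was 3, and was 5 with no filter and 13 with the block, whose same-numbered libraries share only a number. For the interaction it was 0, and was 1 with DESeq2 and 1 with the block; with a library left out it ranged from 0 to 1 (1 without *Ypel4*+/+ Ortho-E replicate 1). The cause of these changes was not tested. The block changed no call of the 10 genes. Depth limits *Ccnd2*, *Cdk6* and *Cdkn1a*, with 0 to 18, 0 to 7 and 0 to 110 counts per library.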
